A study of Mus musculus with 18 samples.

Results

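The genes described here are 10 heat shock chaperone and heat shock factor genes of the mouse, Hsp90aa1, Hsp90ab1, Hspa1b, Hspa8, Hsph1, Dnajb1, Hspb1, Hspb7, Hspd1 and Hsf1, followed in cardiac ventricles across 6 groups of mice. Every probe set that the platform annotation gives to one of these symbols and to no other was taken, which gave 22 of the 45101 probe sets on the array. They read 8 of the 10 genes; Hsp90ab1 and Hsf1 had no probe set under that rule and were not analysed here. Of the 22 probe sets, 20 were bright enough to be among the 27022 tested, and the 2 dim ones, both of Hsp90aa1, are given as values only.

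The study deleted the gene of serum response factor (SRF), which binds CArG boxes in muscle genes and immediate-early genes, in adult mice and gave some of them phenylephrine (PE), which activates alpha-1 adrenoceptors. Each of the 18 arrays read 1 heart, and the titles call the replicates biological. The groups were SRFHKO with PE (3 hearts), control with PE (3), SRFHKO (3) and control (3) at day 25, and SRFHKO (4) and control (2) at day 8. All mice were male, of the strain labelled CR7BL6 and 10 weeks old, and all had received 0.7 mg of tamoxifen on 3 days, controls included. Controls were SRF-flex2neo littermates; the sources used here do not give the promoter that drives the deletion. An osmotic minipump delivered PE from day 10 until day 25 at a dose of 80 mg/kg/day, and the labels mention no pump in the mice without PE. A difference with PE, also where it is worded below as a rise with PE, therefore cannot be told apart from one with the pump.

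Heat shock proteins are chaperones: they hold unfolded proteins, help them fold and pass on those that cannot be folded. Hsp70 proteins work with J-domain partners, which bring substrates, and with Hsp110 proteins, which exchange their nucleotide. Hsp90 finishes the folding of kinases and receptors, small heat shock proteins keep unfolded proteins from clumping, and Hsp60 folds proteins inside mitochondria. Many of these genes are switched on by heat shock factor 1 (HSF1), which binds inverted repeats of a short sequence, the heat shock element, in their promoters. In heart muscle they are known for guarding contractile proteins under load.

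The promoters are shown because the members that moved together under PE can be set beside members that did not. Each run covers the 250 bases before the RefSeq transcription start (assembly GRCm38.p6), written from 5′ to 3′ on the strand of the gene, and capitals mark the heat shock element searched, GAANNTTC or TTCNNGAA on either strand. The windows are Hspa1b (chr17:34959239-34959488, minus strand), Hsph1 (chr5:149636316-149636565, minus strand), Hspb1 (chr5:135887669-135887918, plus strand), Hspd1 (chr1:55087933-55088182, minus strand) and Hspb7 (chr4:141420529-141420778, plus strand).
Hspa1b: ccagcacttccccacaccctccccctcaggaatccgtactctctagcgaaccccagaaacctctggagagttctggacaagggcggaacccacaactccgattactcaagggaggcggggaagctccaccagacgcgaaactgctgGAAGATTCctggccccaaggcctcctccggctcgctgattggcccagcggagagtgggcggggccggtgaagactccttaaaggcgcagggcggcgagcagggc
Hsph1: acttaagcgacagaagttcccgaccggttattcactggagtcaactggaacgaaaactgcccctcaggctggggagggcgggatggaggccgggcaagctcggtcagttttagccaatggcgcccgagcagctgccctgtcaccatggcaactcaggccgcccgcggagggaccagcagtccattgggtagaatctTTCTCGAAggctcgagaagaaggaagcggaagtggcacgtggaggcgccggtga
Hspb1: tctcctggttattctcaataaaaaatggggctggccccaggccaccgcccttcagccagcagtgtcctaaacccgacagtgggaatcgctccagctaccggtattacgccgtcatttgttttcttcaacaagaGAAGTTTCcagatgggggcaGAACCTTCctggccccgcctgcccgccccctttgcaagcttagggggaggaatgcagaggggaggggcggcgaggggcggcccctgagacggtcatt
Hspd1: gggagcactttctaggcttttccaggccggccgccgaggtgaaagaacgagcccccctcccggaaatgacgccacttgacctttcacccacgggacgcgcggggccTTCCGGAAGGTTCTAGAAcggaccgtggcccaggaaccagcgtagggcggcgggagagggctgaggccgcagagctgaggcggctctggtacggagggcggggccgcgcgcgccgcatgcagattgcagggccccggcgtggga
Hspb7: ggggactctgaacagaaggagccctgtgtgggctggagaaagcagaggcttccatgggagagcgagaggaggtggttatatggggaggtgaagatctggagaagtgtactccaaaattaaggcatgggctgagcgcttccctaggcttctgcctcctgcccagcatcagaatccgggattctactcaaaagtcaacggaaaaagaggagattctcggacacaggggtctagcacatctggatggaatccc
In these runs Hspa1b holds 1 element, from -104 to -97 counted from the start, and Hsph1 holds 1 from -54 to -47. Hspb1 holds 2 separate ones, from -117 to -110 and from -97 to -90. Hspd1 holds 3 that overlap in a run from -144 to -127, in the stretch it shares with the divergent gene Hspe1, while Hspb7 holds none.

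Among all 32851 RefSeq promoter windows of 300 bases (250 before and 50 after the start), 15.1% hold this element. The 3-unit form, in which the first 3 letters of the element follow again after NN, is held by 0.603% of the windows and contains the shorter one. Of the 6 members with a window, 4 held the shorter form and 2 the 3-unit form, Hspd1 before its start and Hsph1 after it, from 16 to 28 counted from the start of the run shown. A member with several windows counted if any of them matched, while the shares over all are of single windows. For such a member the window with the most elements was chosen for printing. Dnajb1 held none in either of its windows, and Hsp90aa1 and Hspa8 had no window. The CArG box, which SRF binds, was in none of the 6 windows, against 1.63% of all windows. A match is a description of letters and no evidence of binding.

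Levels are log2 of the scaled array intensity plus 2, so 1 unit is a 2-fold difference, and probe sets are compared with themselves only. Each gene is led by its probe set with the highest mean over the 18 arrays, an _x_at set (one whose probes can match other transcripts) being used only without another. Calls are limma tests at a Benjamini-Hochberg adjusted p under 0.05 over the 27022 probe sets, from 1 fit in which the 6 groups share their spread. All 11 cardiomyocyte markers checked were above the filter on dim probe sets in these ventricles. Unscaled brightness (the 2% trimmed mean) lay between 71.2 and 83.5 in SRFHKO hearts and between 46.6 and 68.5 in control hearts at day 25 without PE. Day 8 arrays were brighter still, at 110.2 to 148, so a change with the day cannot be told apart from one with array brightness. The labels used here name no array run or date. The 2 Srf probe sets passed the test in none of the genotype contrasts; where they lie relative to the deleted part is not known here, so they check nothing. In whole ventricles, fewer cells of a type and less RNA per cell cannot be told apart.

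Hspa1b, the heat-inducible cytosolic Hsp70, made the largest excursion of the 8 genes measured. Its leading probe set 1452318_a_at stood at 6.62, 12.85 and 12.09 in SRFHKO hearts with PE and at 11.75, 9.37 and 11.47 in control hearts with PE. Without PE it stood at 6.07, 6.67 and 6.95 in SRFHKO hearts and at 5.31, 5.50 and 5.89 in control hearts of day 25. Of the 6 hearts with PE, 5 lay above all 6 without it, and SRFHKO with PE replicate 1 lay within their range.

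Averaged over both genotypes, a contrast added after the data had been seen, PE raised Hspa1b by 4.62 ± 0.71 on the log2 scale (SE, 6 against 6 hearts), which is 24.7-fold, with a limma adjusted p of 0.00462. An exact permutation of PE within genotype (400 regroupings, two-sided) gave p = 0.015, where 0.005 is the smallest it can give. Within a genotype the call was not made: the difference was 3.96 ± 1.01 in SRFHKO hearts (15.5-fold, limma adjusted p = 0.132) and 5.29 ± 1.01 in control hearts (39.2-fold, limma adjusted p = 0.0850). That standard error is shared by the 6 groups, whose SD ran from 0.08 in control hearts of day 8 to 3.40 in SRFHKO hearts with PE. A limma fit on the control hearts of day 25 alone gave 5.29 ± 0.49 with an adjusted p of 0.00622. In that fit limma drew the SE towards that of other probe sets, so it is not the spread of these hearts alone.

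The other Hspa1b probe sets read the same pattern. In SRFHKO hearts with PE, 1427127_x_at stood at 6.01, 12.27 and 11.23, against 6.00, 6.09 and 5.81 without PE. Probe set 1427126_at stood at 5.37, 11.86 and 10.48 in SRFHKO hearts with PE, against 5.30, 5.25 and 5.57 without it. Averaged over genotypes they rose by 4.25 ± 0.74 (limma adjusted p = 0.0115) and by 4.01 ± 0.75 (limma adjusted p = 0.0184), the second call being lost without control with PE replicate 1 (adjusted p = 0.0561) or 3 (0.0516). The neighbouring Hspa1a encodes a near-identical Hsp70, and its promoter window shares 296 of 300 bases with that of Hspa1b. Its probe set 1452388_at, no member, stood at 5.67, 11.76 and 10.43 in SRFHKO hearts with PE and at 10.18, 7.80 and 9.70 in control hearts with PE. Signal of the 2 genes may be shared by these probe sets, so which of them was induced is uncertain.

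Deletion of SRF had no called effect on Hspa1b. With PE, SRFHKO minus control was -0.34 (95% interval -2.46 to 1.77, limma adjusted p = 0.932). Without PE at day 25 the groups did not overlap, and the difference was 0.99 (-1.12 to 3.11, limma adjusted p = 0.656). In a limma fit on these 6 hearts alone its SE, likewise drawn towards that of other probe sets, was 0.26 and its adjusted p 0.122. At day 8 Hspa1b stood at 5.60, 5.47, 4.40 and 6.13 in SRFHKO hearts and at 5.72 and 5.61 in control hearts, which overlap.

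Hsph1, the Hsp110 that recharges Hsp70, followed Hspa1b with a smaller span. Probe set 1425993_a_at stood at 8.90, 11.21 and 10.41 in SRFHKO hearts with PE and at 9.87, 8.69 and 10.02 in control hearts with PE. The hearts without PE at day 25 stood at 8.73, 8.09 and 8.86 for SRFHKO and at 8.42, 7.89 and 7.55 for control. Of the 6 hearts with PE 5 lay above all those without it; the exception was control with PE replicate 2, and SRFHKO with PE replicate 1 exceeded the highest heart without PE by a small step. The difference was 1.62 ± 0.43 in SRFHKO hearts (limma adjusted p = 0.147) and 1.57 ± 0.43 in control hearts (limma adjusted p = 0.233). Averaged over genotypes Hsph1 rose by 1.59 ± 0.30, or 3.02-fold (limma adjusted p = 0.0184; exact permutation p = 0.005, the smallest possible). That call was lost without SRFHKO replicate 2, control replicate 3, or control with PE replicate 1 or 3, with adjusted p from 0.0528 to 0.0577. The other probe set, 1423566_a_at, gave 1.62 ± 0.32 (limma adjusted p = 0.0226).

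**Figure D1:**
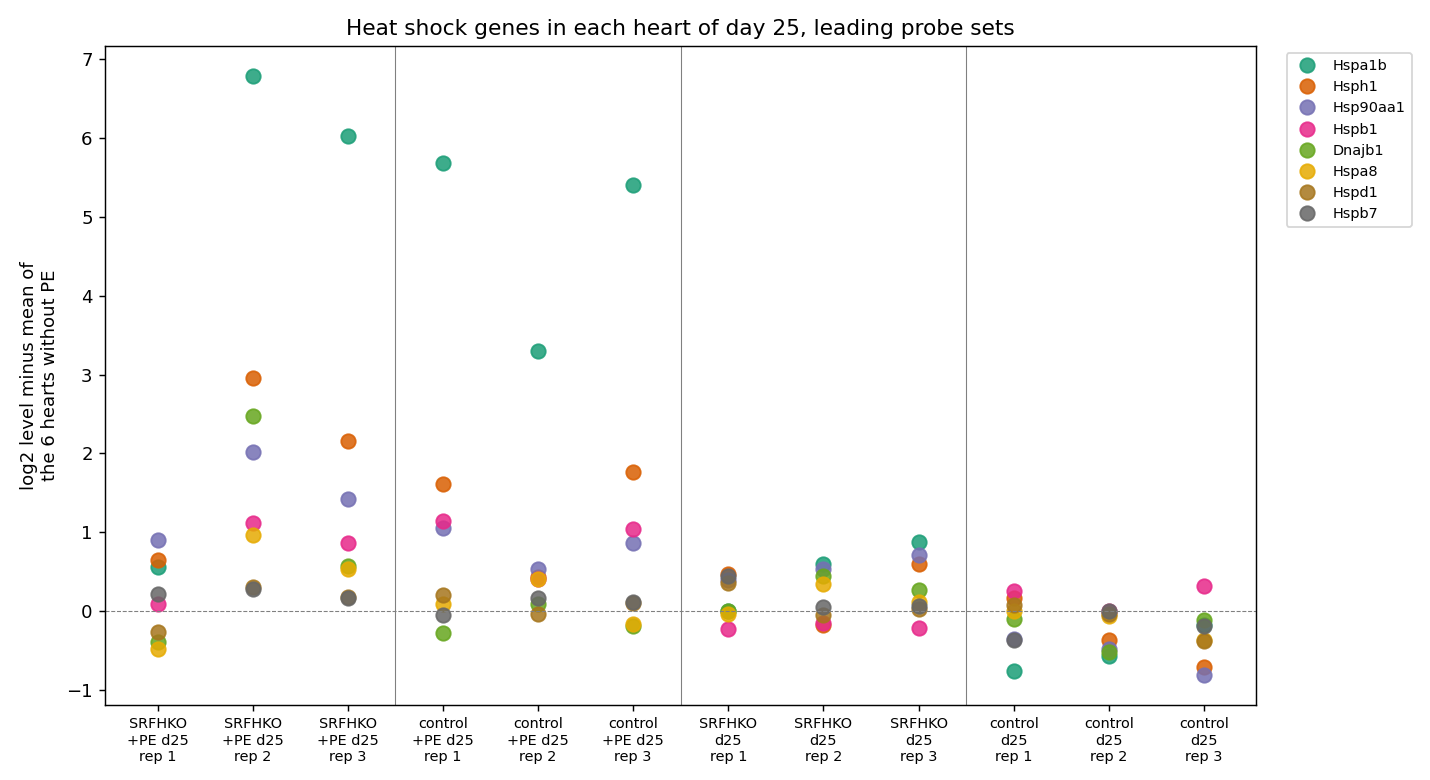
Level of each leading probe set in the 12 hearts of day 25, as log2 level minus the mean of the 6 hearts without PE (y axis); hearts run along the x axis by group and replicate, 1 colour per gene, 1 point per heart. Hspa1b lies far above 0 in 5 of the 6 hearts with PE and below 1 in SRFHKO with PE replicate 1, and Hsph1, Hsp90aa1 and Hspb1 follow with smaller steps.

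Hsp90aa1, the inducible cytosolic Hsp90, was higher with PE and also higher after SRF deletion. Probe set 1438902_a_at stood at 10.94, 12.05 and 11.45 in SRFHKO hearts with PE and at 11.09, 10.56 and 10.89 in control hearts with PE. Without PE at day 25 it stood at 10.43, 10.57 and 10.74 in SRFHKO hearts and at 9.68, 9.55 and 9.23 in control hearts. The SRFHKO hearts thus lay above every control heart without PE, and 2 of the 3 lay within the range of the control hearts with PE.

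SRF deletion raised Hsp90aa1 at day 25 without PE by 1.09 ± 0.21, or 2.13-fold (limma adjusted p = 0.0124). Probe set 1426645_at also passed, at 1.14 ± 0.28 (limma adjusted p = 0.0368), while 1437497_a_at gave 0.72 ± 0.26 (limma adjusted p = 0.155). In all, 3 of the 20 tested member probe sets passed in this comparison, all higher (these 2 and 1 of Hspb7), against 1.25% of all probe sets that passed as higher and 2.18% in either direction. In 8 of the 20 the SRFHKO hearts lay above all control hearts, against 9.66% of all, and in 2, both of Hspb1, below them, against 11.6%. Leaving out each of these 6 hearts left 0 to 2 called members, with 0 without SRFHKO replicate 3. With array brightness as a covariate the size for 1438902_a_at was 1.10 ± 0.26 but its limma adjusted p was 0.102, and for 1426645_at it was 0.0956; brightness differed between these groups as given above, and its part in the result was not tested. The call for 1438902_a_at was also lost without control replicate 3 (adjusted p = 0.0595) or SRFHKO replicate 3 (0.0688), and that for 1426645_at was kept in 1 of 6 omissions (adjusted p up to 0.146). In the same hearts the summed cardiomyocyte markers were 84157 to 100052 in SRFHKO hearts, against 109815 to 120202 in control hearts (2 of 11 called lower), and the endothelial ones 1847 to 2018 against 2104 to 2746 (1 of 8 called lower). Skeletal muscle markers, of which 4 of 10 were above the filter, summed to 2370 to 3220 in SRFHKO hearts and to 6708 to 7730 in control hearts (2 of 4 called lower and 1 higher). This sum reads mainly Ckm, Acta1 and Myl1 and cannot show a change in skeletal muscle. The ratio of the 3' to the 5' probe set of Gapdh, which falls or rises with RNA integrity and labelling, was 0.820 to 0.835 in SRFHKO hearts and 0.868 to 0.945 in control hearts. The part of these markers and of RNA quality in the deletion results was not tested.

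At day 8 Hsp90aa1 stood at 10.15, 10.18, 9.98 and 10.51 in SRFHKO hearts and at 9.93 and 9.90 in control hearts. In this leading probe set, 1438902_a_at, the 2 groups did not overlap, but the difference of 0.29 (95% interval -0.16 to 0.75) did not pass (limma adjusted p = 0.667). Its change of the genotype difference between day 8 and day 25 was 0.80 ± 0.30 (limma adjusted p = 0.277). In the other 2 tested probe sets the groups of day 8 overlapped. Probe set 1426645_at stood at 9.45 to 9.84 in SRFHKO and at 9.48 to 9.79 in control hearts. For 1437497_a_at these ranges were 9.59 to 10.14 and 9.69 to 9.98. At day 8 none of the 20 member probe sets passed in limma, against 0.17% of all, and 3 had an unadjusted p under 0.05, against 11.8% of all. For the change of the genotype difference with day none of the 20 passed either (0.0407% of all did), and 3 had an unadjusted p under 0.05, against 12.3% of all.

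PE raised Hsp90aa1 in control hearts by 1.36 ± 0.21, or 2.57-fold (limma adjusted p = 0.0236). Only 7 of the 27022 probe sets (0.0259%, and 0.0222% as higher) passed in control hearts, and 2 of them were Hsp90aa1, the other being 1426645_at at 1.61 ± 0.28 (limma adjusted p = 0.0477). The remaining 5 were 2 of Enah and 1 each of Myh7, Pdlim5 and Phkg1, all higher with PE except Phkg1; Myh7 encodes the slow beta-myosin heavy chain. The Hsp90aa1 calls did not survive every omission: for 1438902_a_at the adjusted p was 0.0788 to 0.126 without control with PE replicate 1 or 3 or without control replicate 2 or 3. In 10 of the 20 member probe sets the control hearts with PE lay above all those without it, against 5.81% of all.

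In SRFHKO hearts PE moved Hsp90aa1 by 0.90 ± 0.21 (limma adjusted p = 0.0841). Averaged over genotypes the rise was 1.13 ± 0.15, or 2.19-fold (limma adjusted p = 0.00149; exact permutation p = 0.005), and the other 2 tested probe sets gave 1.33 ± 0.19 and 1.29 ± 0.18. The interaction of PE and genotype was -0.46 ± 0.29 (limma adjusted p = 0.751), so a difference between the genotypes in their response was not detected. None of the 20 member probe sets passed for that interaction in limma (0.0037% of all did) and none had an unadjusted p under 0.05, against 7.4% of all. The dim probe sets 1433251_at and 1441827_x_at stayed between 1.16 and 4.23 in all 18 hearts, near the filter limit of 3.58.

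**Figure D2:**
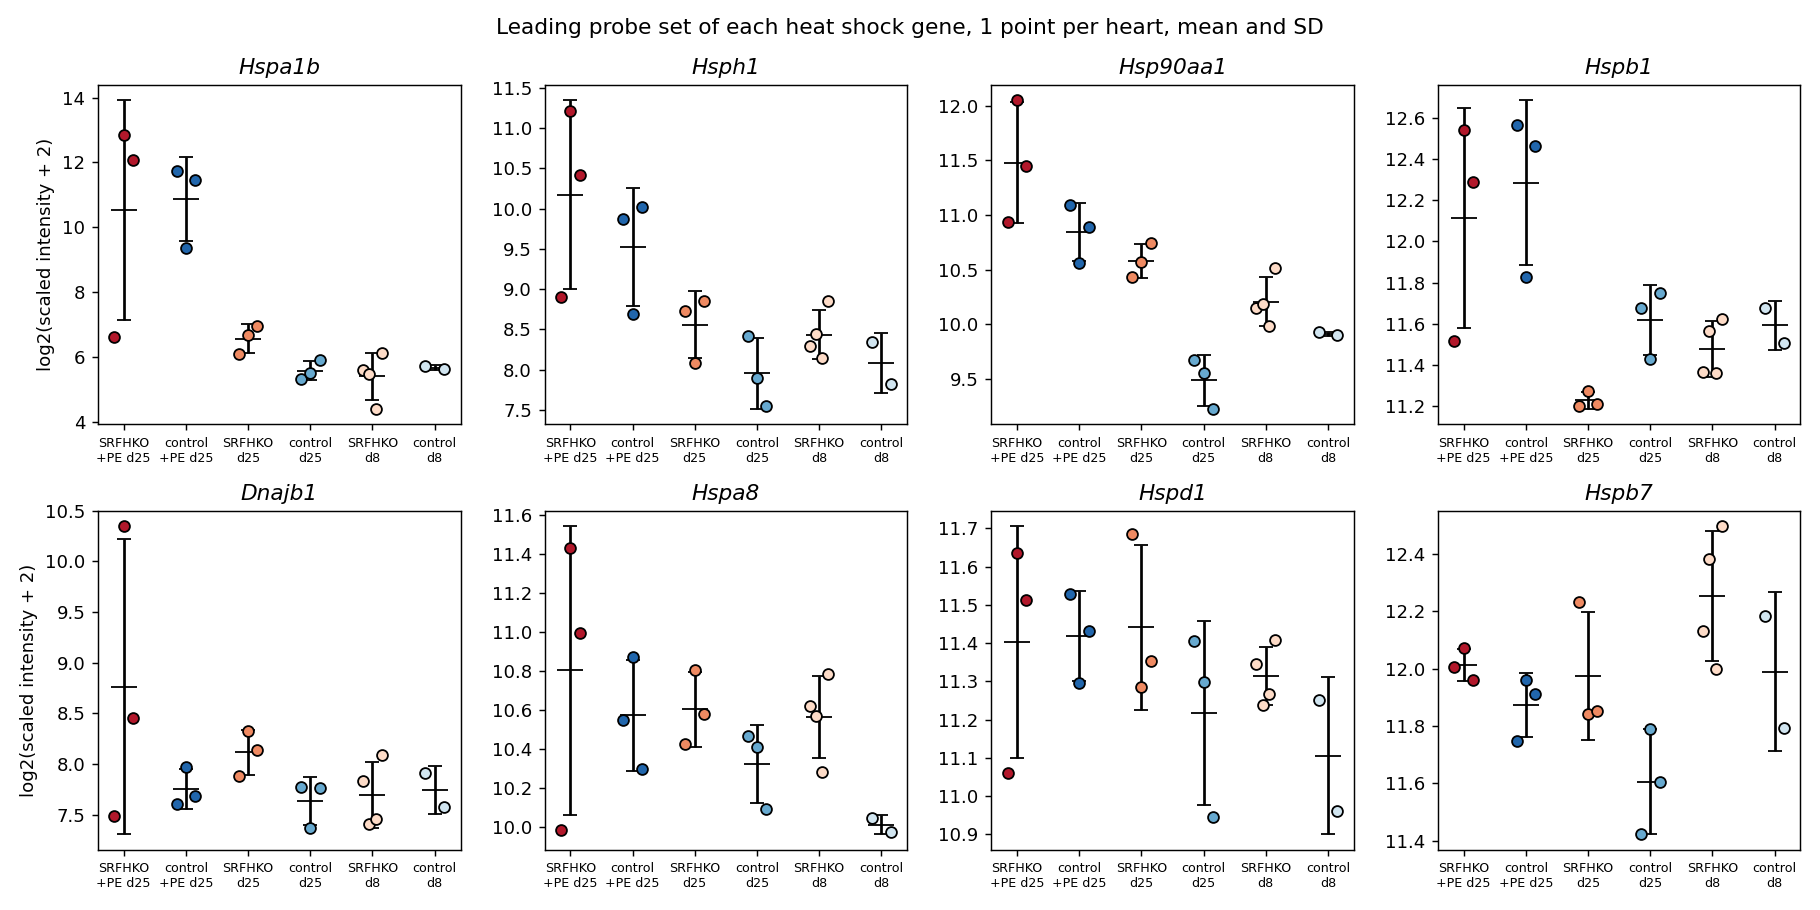
Log2 level of the leading probe set of each of the 8 genes (y axis, a separate scale for each panel) in the 6 groups (x axis), 1 point per heart, with the mean and SD of each group. Hspa1b, Hsph1, Hsp90aa1 and Hspb1 lie higher in the groups with PE, while Hspa8, Hspd1 and Hspb7 keep group means within about 1 unit of each other.

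Hspb1, the small heat shock protein known as Hsp25 in mice, rose with PE when both genotypes were averaged. Probe set 1422943_a_at stood at 11.52, 12.54 and 12.29 in SRFHKO hearts with PE and at 12.56, 11.83 and 12.46 in control hearts with PE. The day 25 levels without PE were 11.20, 11.28 and 11.21 in SRFHKO hearts and 11.68, 11.43 and 11.75 in control hearts. Within each genotype every heart with PE lay above every heart without it.

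The difference with PE was 0.89 ± 0.20 in SRFHKO hearts (limma adjusted p = 0.0793) and 0.67 ± 0.20 in control hearts (limma adjusted p = 0.269). Averaged over genotypes Hspb1 rose by 0.78 ± 0.14, or 1.71-fold (limma adjusted p = 0.0158; exact permutation p = 0.005), a call lost without control with PE replicate 1 (adjusted p = 0.0521). Its other probe set, 1425964_x_at, was the 1 member of 20 that passed for PE in SRFHKO hearts, where 0.122% of all passed as higher and 0.185% in either direction: it rose by 1.19 ± 0.24, or 2.28-fold (limma adjusted p = 0.0460). That call was lost without any of the 3 SRFHKO hearts (adjusted p = 0.115 to 0.141) and without SRFHKO with PE replicate 2 (0.300) or 3 (0.133). In 6 of the 20 member probe sets the SRFHKO hearts with PE lay above all those without it, against 7.31% of all. Genotype did not shift Hspb1 by a called amount: SRFHKO minus control was -0.39 ± 0.20 at day 25 without PE (limma adjusted p = 0.327).

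Counting all members for the averaged PE contrast, 10 of 20 probe sets rose, namely every tested probe set of Hspa1b, Hsph1, Hsp90aa1 and Hspb1, against 0.411% of all 27022 that rose and 0.551% that passed in either direction. The median difference was 0.68 over the 20 member probe sets, against -0.03 over all probe sets tested. Leaving out each of the 12 hearts in turn gave 6 to 10 called members, the lowest without control with PE replicate 1. In hearts with PE the summed fibroblast markers were 8158 to 12128 in SRFHKO and 8695 to 9317 in control hearts, against 5466 to 8362 in SRFHKO and 5757 to 8811 in control hearts without it (all 8 markers measured, 1 of 8 called higher). Adipocyte markers, 3 of 7 above the filter and none called, summed to 5512 to 5969 in SRFHKO and 5369 to 6404 in control hearts with PE, against 6242 to 6808 in SRFHKO and 6438 to 6699 in control hearts without it. Skeletal muscle markers, none called, summed to 3205 to 4840 in SRFHKO and 8466 to 9823 in control hearts with PE, against 2370 to 3220 in SRFHKO and 6708 to 7730 in control hearts without it. The skeletal muscle sum reads mainly Ckm, Acta1 and Myl1, while Myh1, Myh2, Myh4, Tnnt3 and Actn3 reached a log2 level of 4.66 at most. It thus follows the former genes and cannot show a change in skeletal muscle. The adipocyte sum reads mainly Fabp4, which stood at a log2 level of 12.09 to 12.68 across all hearts. Adipoq, the next highest adipocyte marker, reached 8.41 at most. The adipocyte sum thus follows Fabp4 and cannot show a change in adipocytes. The part of these markers in the PE results was not tested.

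**Figure D3:**
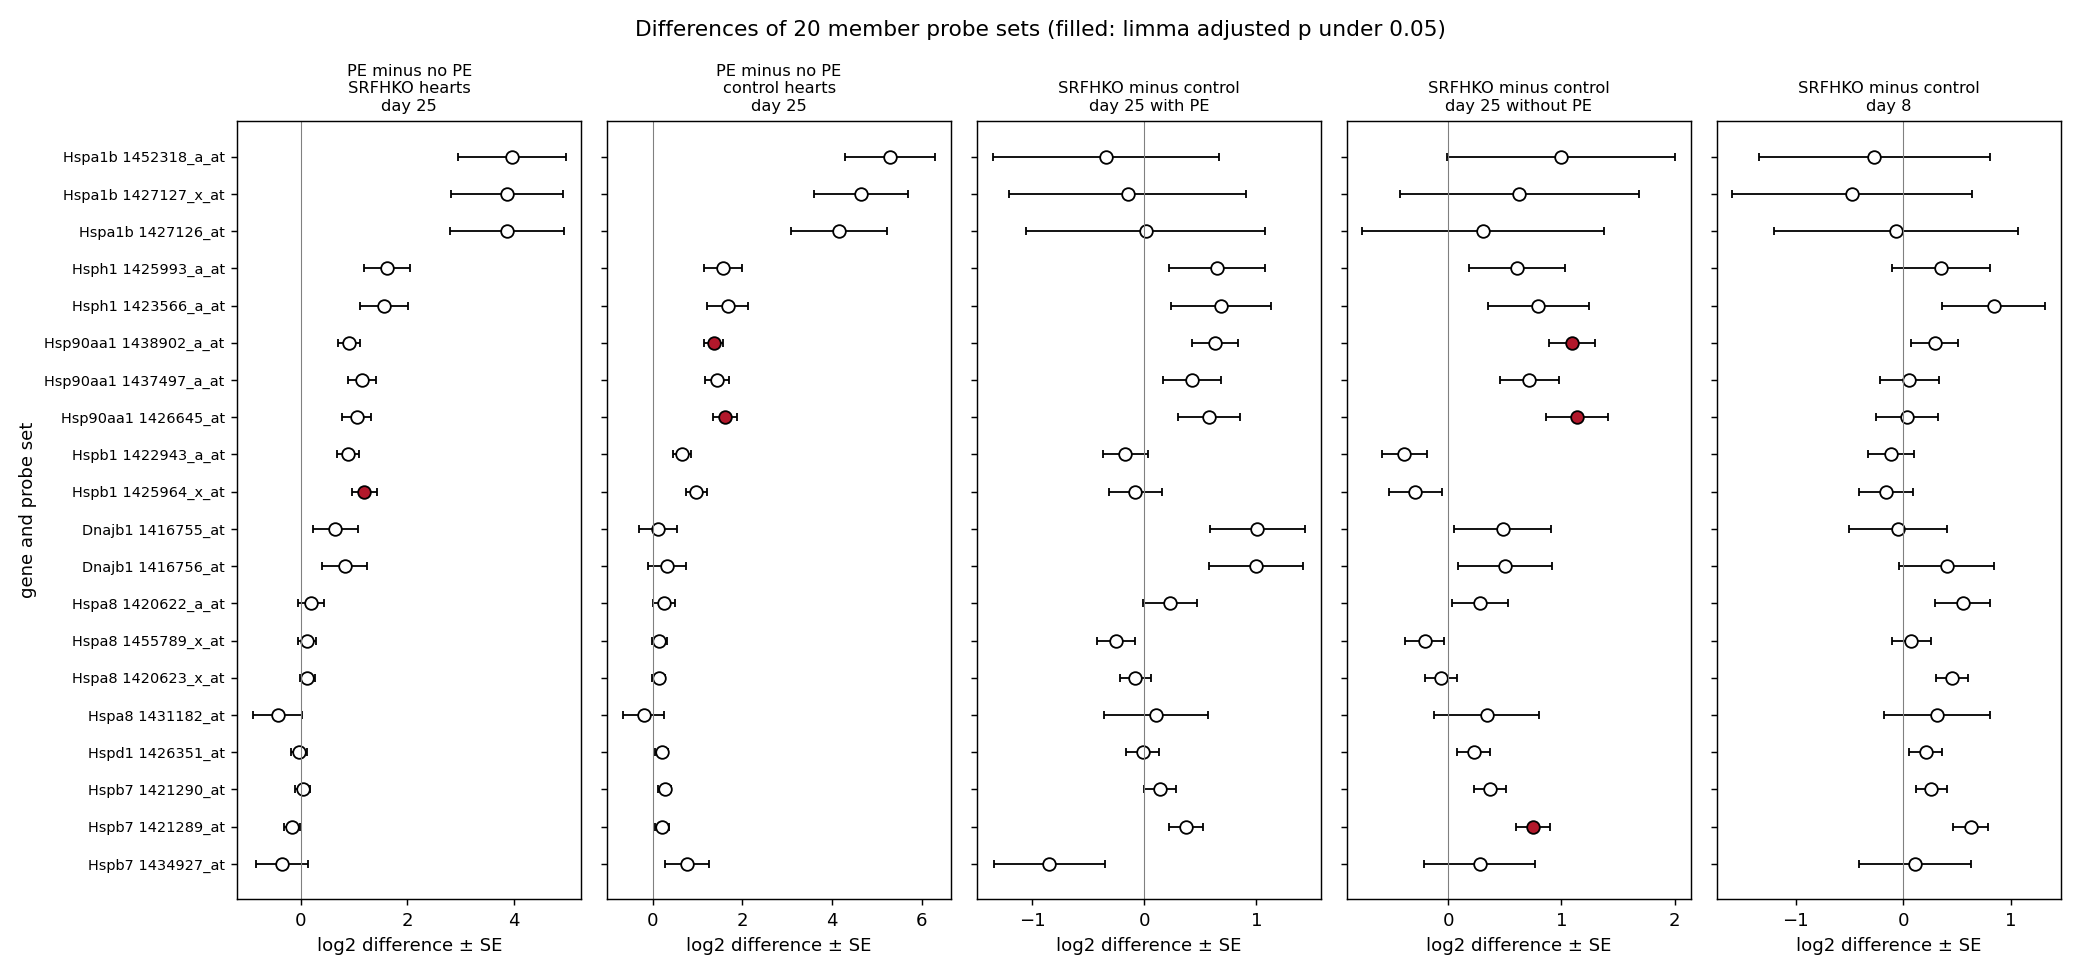
Log2 difference with its SE (x axis, a separate scale for each panel) of the 20 tested member probe sets (y axis) in 5 comparisons; filled points passed limma at an adjusted p under 0.05. Hspa1b has the largest PE differences, at 3.96 in SRFHKO and 5.29 in control hearts for its leading probe set, with the widest errors, and filled points are 2 for Hsp90aa1 in control hearts with PE, 1 for Hspb1 in SRFHKO hearts with PE, and 2 for Hsp90aa1 and 1 for Hspb7 after deletion without PE.

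SRFHKO with PE replicate 1 differed from the other 2 hearts of its group across the heat shock genes. It was the lowest of the 3 in 18 of 20 member probe sets, and in 33% of the 12556 genes with a leading probe set. Among 25 known HSF1 target genes, of which 22 were tested, 7 of them members, it was the lowest in 22 of 22. Across these targets the 3 hearts spanned from 0.03 in Tcp1 to 6.23 in Hspa1b. That heart was singled out for its low values of the member probe sets, so these counts are a description only. SRFHKO with PE replicate 2 was the highest of the 6 hearts with PE in 15 of 20 member probe sets, against 14.5% of all genes.

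The genes called for PE in control hearts, other than Hsp90aa1, were mixed across the SRFHKO hearts with PE, replicate 1 included. Enah, an actin regulator, stood in its probe set 1421624_a_at at 8.06, 8.71 and 7.97 in SRFHKO hearts with PE, against 7.04, 7.17 and 7.15 in SRFHKO hearts without it. Myh7 stood at 12.31, 12.62 and 12.33 with PE, all within the 12.30 to 12.66 of the SRFHKO hearts without it. Pdlim5 stood at 10.84, 10.75 and 10.61 with PE, against 10.66 to 11.08 in SRFHKO hearts without it. Control hearts without PE stood lower, at 9.14 to 9.82 for Myh7 and 10.27 to 10.29 for Pdlim5. Both genes were thus already high in SRFHKO hearts without PE and cannot show whether a SRFHKO heart responded to it. Phkg1, the one called lower, stood at 5.52, 5.47 and 5.57 with PE, below the 5.68 to 6.21 of SRFHKO hearts without it. The summed fibroblast markers of replicate 1 were the highest of its group, at 12128 against 10508 and 8158, and its brightness of 78.5 lay between those of the other 2, at 85.4 and 75.9.

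Of the 6 hearts in the PE comparison within SRFHKO, leaving out SRFHKO with PE replicate 1 gave 10 of 20 called member probe sets (0.303% of all passed as higher), and leaving out any of the other 5 gave 0. That heart was singled out for its low values of these same probe sets, so a larger difference without it follows from the choice and is given as a description only. Without it the fitted difference was 5.91 ± 0.53 for Hspa1b, 2.25 ± 0.36 for Hsph1, 1.17 ± 0.19 for Hsp90aa1 and 1.18 ± 0.17 for Hspb1. For SRFHKO minus control with PE, none of the 20 passed in limma with all hearts (0.929% of all did), and 4 had an unadjusted p under 0.05, against 12.8% of all. Leaving out the same heart gave 2 called, the leading probe sets of Hsp90aa1 (0.90 ± 0.19) and Dnajb1 (1.65 ± 0.35), where 0.248% of all passed as higher, and leaving out any of the other 5 gave 0. With all hearts their means with PE were 11.48 in SRFHKO and 10.85 in control hearts for Hsp90aa1, and 8.76 and 7.75 for Dnajb1. The larger differences again follow from the choice of heart.

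Dnajb1, the Hsp40 J-domain partner that hands substrates to Hsp70, spread widely in a single group. Probe set 1416755_at stood at 7.48, 10.35 and 8.45 in SRFHKO hearts with PE and at 7.60, 7.97 and 7.68 in control hearts with PE. Hearts of day 25 without PE stood at 7.88, 8.33 and 8.14 for SRFHKO and at 7.78, 7.36 and 7.77 for control. SRFHKO with PE replicate 2 stood alone above 10, and replicate 1 lay below all 3 SRFHKO hearts without PE.

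No Dnajb1 contrast passed with all hearts. The PE difference was 0.65 (95% interval -0.25 to 1.54, limma adjusted p = 0.677) in SRFHKO hearts and 0.12 (-0.77 to 1.01, limma adjusted p = 0.951) in control hearts. SRFHKO minus control with PE was 1.01 ± 0.43 (limma adjusted p = 0.311). Probe set 1416756_at showed the same heart standing out, at 6.74, 9.56 and 7.59 in SRFHKO hearts with PE and at 7.05, 7.01 and 6.85 in control hearts with PE.

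Hspa8, the constitutive cytosolic Hsp70, passed in no comparison. Probe set 1420622_a_at stood at 9.99, 11.43 and 10.99 in SRFHKO hearts with PE and at 10.55, 10.87 and 10.30 in control hearts with PE. Without PE at day 25 it stood at 10.43, 10.81 and 10.58 in SRFHKO hearts and at 10.47, 10.41 and 10.09 in control hearts. All groups overlap at day 25, and the averaged PE difference was 0.22 (95% interval -0.14 to 0.59, limma adjusted p = 0.657).

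At day 8 Hspa8 stood at 10.62, 10.57, 10.28 and 10.79 in SRFHKO hearts and at 10.05 and 9.98 in control hearts, without overlap. At that day SRFHKO hearts lay above all control hearts in 6 of the 20 member probe sets, against 13.6% of all. The same hearts differed in the 18S signal, at 204 to 363 in SRFHKO and 899 to 1773 in control hearts, and in the Gapdh ratio, at 0.850 to 0.936 in SRFHKO and 1.01 to 1.02 in control hearts. Their fibroblast sums were 5557 to 8027 in SRFHKO and 8367 to 13283 in control hearts (none of 8 called), and their skeletal muscle sums 4556 to 5335 in SRFHKO and 6598 to 9021 in control hearts (1 of 4 called lower). The skeletal muscle sums again read mainly Ckm, Acta1 and Myl1 and cannot show a change in skeletal muscle. The part of these measures was not tested. The difference of 0.55 ± 0.26 did not pass (limma adjusted p = 0.409). The other Hspa8 probe sets 1455789_x_at, 1420623_x_at and 1431182_at had averaged PE differences of 0.13, 0.13 and -0.32, all uncalled.

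Hspd1, the mitochondrial Hsp60, passed in no comparison. Probe set 1426351_at stood at 11.06, 11.64 and 11.51 in SRFHKO hearts with PE and at 11.53, 11.30 and 11.43 in control hearts with PE. Without PE at day 25 it stood at 11.69, 11.28 and 11.35 in SRFHKO hearts and at 11.41, 11.30 and 10.95 in control hearts. The groups overlap, and the averaged PE difference was 0.08 (95% interval -0.13 to 0.30, limma adjusted p = 0.817), where the window printed above holds the 3-unit heat shock element and the window of its other RefSeq start holds none.

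Hspb7, the small heat shock protein of heart muscle, passed the test as higher after SRF deletion in 1 of its 3 probe sets. Probe set 1421289_at stood at 11.34, 11.58 and 11.50 in SRFHKO hearts and at 10.62, 10.57 and 10.99 in control hearts of day 25 without PE, which do not overlap. The difference was 0.75 ± 0.15, or 1.68-fold (limma adjusted p = 0.0175). It was lost without control replicate 1 (adjusted p = 0.0630) or SRFHKO replicate 2 (0.0675) or 3 (0.0715).

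With PE, 1421289_at of Hspb7 stood at 11.36, 11.34 and 11.25 in SRFHKO hearts and at 11.10, 10.98 and 10.74 in control hearts, again without overlap (0.38 ± 0.15, limma adjusted p = 0.286). At day 8 it stood at 11.75, 11.83, 11.79 and 12.21 in SRFHKO hearts and at 11.56 and 10.97 in control hearts, with a difference of 0.63 ± 0.16 (limma adjusted p = 0.0939). Without control replicate 1 of day 8 that difference was 0.92 and passed (limma adjusted p = 0.0146), and without control replicate 2 it was 0.33.

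The leading Hspb7 probe set, 1421290_at, stood at 12.23, 11.84 and 11.85 in SRFHKO hearts and at 11.42, 11.79 and 11.61 in control hearts of day 25 without PE, without overlap (0.37 ± 0.14, limma adjusted p = 0.173). Probe set 1434927_at took 2 separate levels that do not follow the groups. It stood at 12.51 in SRFHKO replicate 1, at 12.43 and 12.34 in control with PE replicates 2 and 3 and at 12.29 in control replicate 2, and between 10.34 and 11.16 in the other 14 hearts. Of the 3 Hspb7 probe sets, 2 thus had every SRFHKO heart above every control heart at day 25 without PE, 1 of which passed the test.

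**Figure D4:**
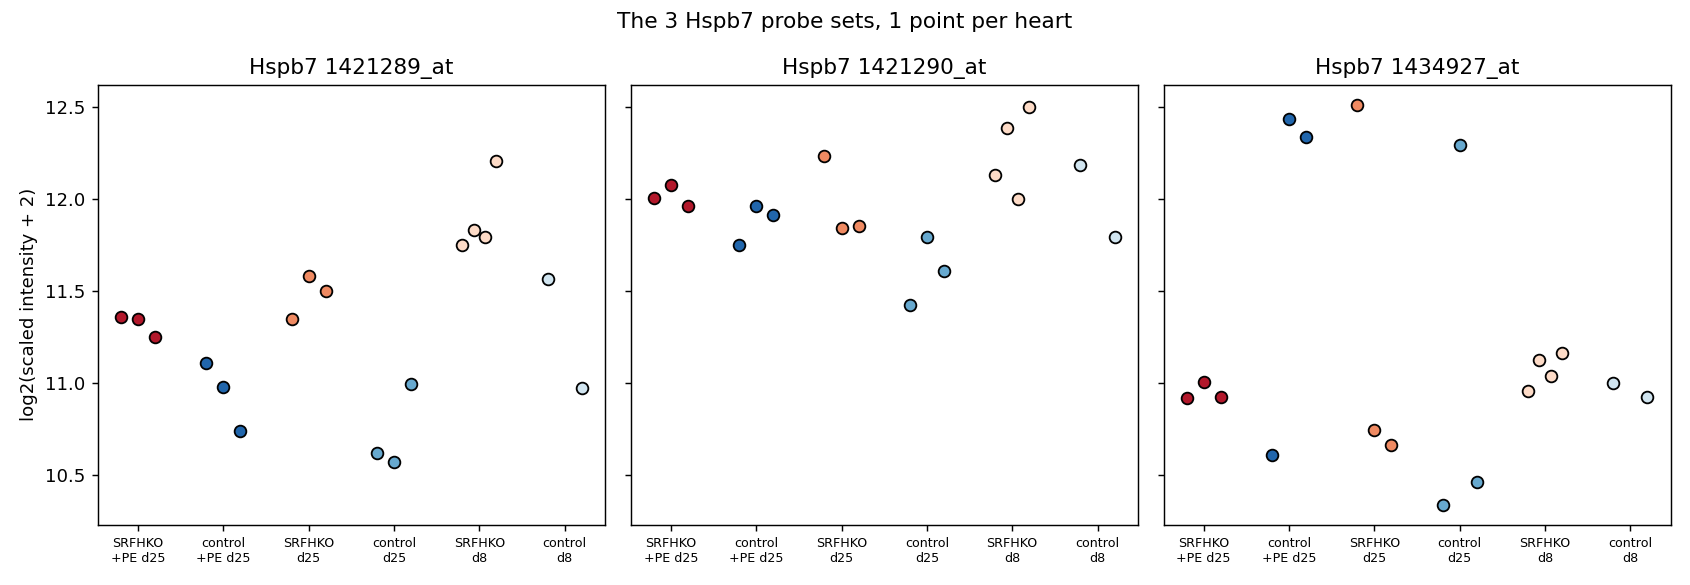
Log2 level (y axis) of the 3 Hspb7 probe sets in the 6 groups (x axis), 1 point per heart, on a common scale. In 1421289_at the SRFHKO hearts lie above their controls at day 25, in 1421290_at the steps are smaller, and in 1434927_at 4 hearts of 3 groups lie above 12.2 while the other 14 lie below 11.2.

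The wider chaperone network was read from 8 gene lists through 1 leading probe set a gene. Of 22 tested HSF1 targets, 7 rose and none fell in the averaged PE contrast, with a median difference of 0.51, against -0.02 over all 12556 leading probe sets; 14 had an unadjusted p under 0.05 in that direction, against 12% of all probe sets in either. Those 7 were the members Hspa1b, Hsph1, Hsp90aa1 and Hspb1, and Hspa1a (3.46 ± 0.66, limma adjusted p = 0.0196), Hspa4l (0.68 ± 0.14, 0.0333) and Dnajb4 (0.67 ± 0.14, 0.0265). Hspa4l is an Hsp110 relative and Dnajb4 a J-domain protein.

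By machinery, 5 of 20 tested Hsp70 and Hsp110 system genes rose under the averaged PE contrast, 1 of 15 in the Hsp90 system, 1 of 19 J-domain proteins and 1 of 7 small heat shock proteins, against 0.411% of all probe sets. Members already counted above are among them, and of the 89 tested genes that are no members 4 rose. The 0.411% is a share of probe sets, while the lists count genes. In a fit with 1 leading probe set per gene, 164 passed in either direction, where 12556 genes had a leading probe set above the filter. The gene of the Hsp70 list not yet named was Hspa4, another Hsp110 relative, at 0.36 ± 0.08 (limma adjusted p = 0.0480). It also rose after SRF deletion at day 25 without PE, by 0.44 ± 0.11 (limma adjusted p = 0.0473). Dnaja1, a J-domain protein and HSF1 target, came to 1.01 ± 0.25 without passing (limma adjusted p = 0.0677).

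None of 16 tested mitochondrial chaperones and proteases passed under the averaged PE contrast in limma, with a median of -0.17 and 5 genes lower at an unadjusted p under 0.05, against 12% of all probe sets in either direction. None of the 14 genes of the CCT chaperonin and prefoldin, which fold actin and tubulin, passed either, and 5 of them were higher at that unadjusted p, against the same 12%. Nor did any pass in the other contrasts, where the smallest p values were those of Cct8 (SRFHKO minus control with PE 0.46 ± 0.11, limma adjusted p = 0.0516) and Pfdn2 (SRFHKO minus control without PE 0.44 ± 0.12, limma adjusted p = 0.0576). Of 6 tested heat shock factors and regulators none passed under the averaged PE contrast, and 1 was lower at an unadjusted p under 0.05.

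Of the 89 tested list genes that are no members, 3 passed for SRF deletion at day 25 with PE, Ptges3l, Grpel1 and Daxx, against 0.929% of all probe sets. Without PE 2 passed, Hspa4 and Ptges3l, where 2.18% of all probe sets did. In fits with 1 leading probe set per gene, 206 passed with PE and 295 without it, where 12556 genes had a leading probe set above the filter. Ptges3l, a relative of the Hsp90 co-chaperone p23, stood at 6.64, 7.63 and 7.45 in SRFHKO hearts with PE and at 9.08, 8.84 and 9.07 in control hearts with PE. Without PE at day 25 the gene stood at 7.29, 6.77 and 6.91 in SRFHKO hearts and at 9.12, 9.12 and 8.89 in control hearts. It fell by 1.76 on the log2 scale with PE (limma adjusted p = 0.00120) and by 2.05 without it (limma adjusted p = 0.000351), the groups lying apart in both. With PE, Grpel1, the nucleotide exchange factor of mitochondrial Hsp70, fell by 0.43 (limma adjusted p = 0.0303), and Daxx, a regulator that binds HSF1, by 0.55 (limma adjusted p = 0.0399).

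**Figure D5:**
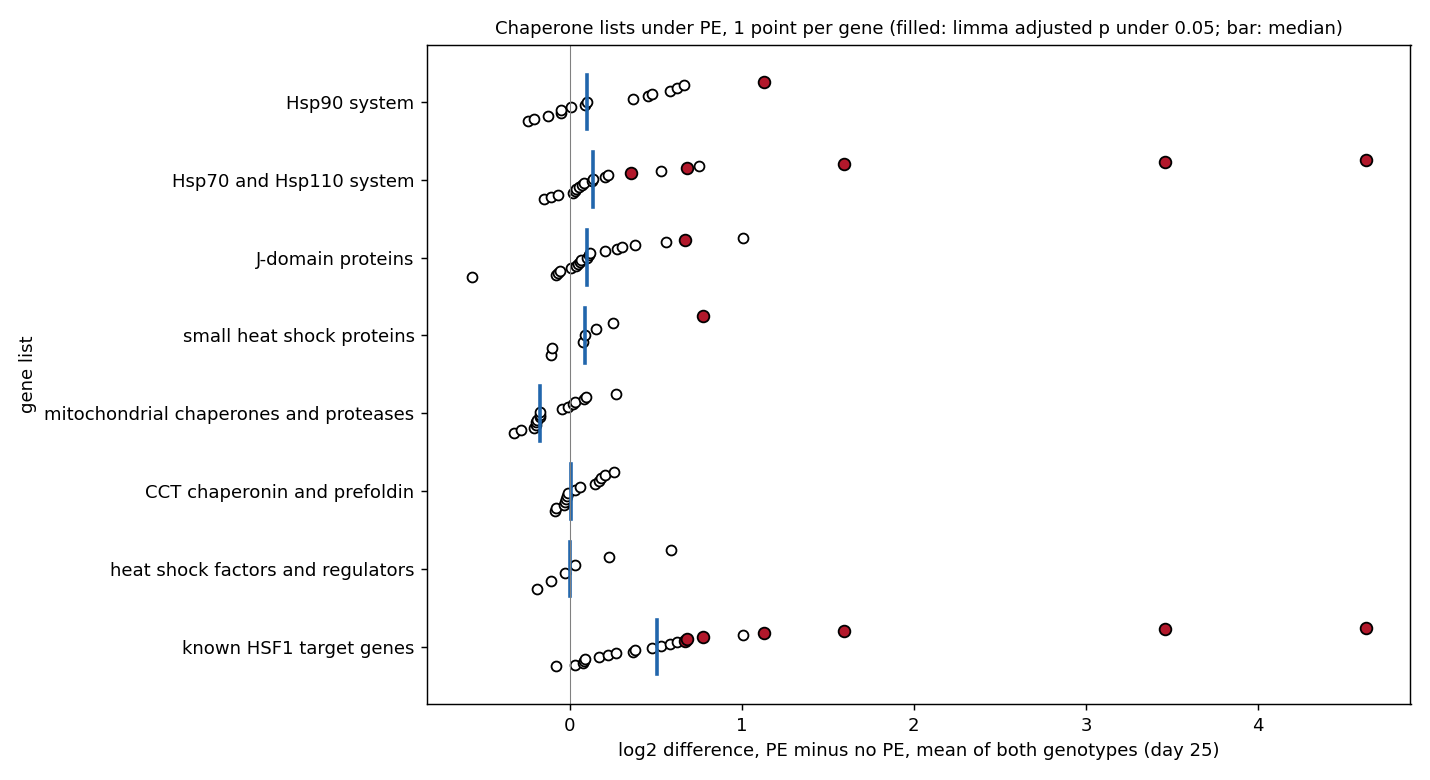
Log2 difference, PE minus no PE averaged over both genotypes at day 25 (x axis), for the tested genes of 8 chaperone lists (y axis), 1 point per gene; filled points passed limma at an adjusted p under 0.05 and bars give list medians. The HSF1 target list has a median of 0.51 and 7 filled points, and the mitochondrial list a median of -0.17 and none.

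Across hearts, the genes whose levels ran most like those of 3 members were listed by Pearson correlation over the 18 arrays, as a description. The hearts share groups, and array brightness differs with the day. For Hsp90aa1 they were P4ha1 (0.925), Slain2 (0.920) and Hsph1 (0.916), with 0.925, 0.920 and 0.906 over the 12 hearts of day 25. For Hspb1 they were Hspa1a (0.899), P4ha2 (0.894) and Hspb1's fellow member Hspa1b (0.885), with 0.904, 0.899 and 0.892 over the 12. P4ha1 and P4ha2 both encode prolyl hydroxylases of collagen. For Hspb7 they were Tubb4b (0.863), Cd164 (0.847) and Fam174a (0.801), with 0.772, 0.816 and 0.804 over the 12. Each member was read here from its leading probe set. For Hspb7 that was 1421290_at, which passed in no comparison, and for Hspb1 1422943_a_at, which passed only in the averaged PE contrast.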

How the data were processed

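The deposited table holds 1 intensity per probe set and array on a linear scale, made by the authors with GCOS, per the submitters' processing notes; its version and the signal algorithm are not given. Intensities were scaled here to a common 2% trimmed mean (90.6), 2 was added as pseudocount and log2 taken, which understates changes of dim genes. Probe sets with a mean below the 40th percentile (log2 3.58) and 64 control probe sets were left out. Names came from the platform annotation (34958 probe sets with 1 symbol, 932 with several, 9211 with none), updated through RefSeq GRCm38.p6. Probe sets with several symbols were left unnamed and could not be members.

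Testing used limma 3.58.1 in R 4.3.3 (group means, empirical Bayes with trend, two-sided, Benjamini-Hochberg) and was tested on simulated data. Of the contrasts, 7 were planned: genotype at day 8 and at day 25 with and without PE, PE within SRFHKO and within control hearts, and both interactions. PE averaged over genotypes was added after the data were seen. Members, lists and markers were chosen with earlier results of these data known. Named were all member probe sets, list genes past the threshold (at most 6 a list and contrast), the 2 with the smallest p in a list with none, and 3 like genes per member called in a planned contrast; Enah, Myh7, Pdlim5, Phkg1, Dnaja1, Hspa1a, Hspa4l and Dnajb4 were named after their values were seen. Errors of differences are SE. The number of arrays limits the precision.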

Additional observations from a re-analysis of the deposited data

How the results depend on the processing

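Over the settings that keep all hearts, 1322 member results stayed on their side of the threshold and, where uncalled, within 1 SE, 12 lost a call, 2 gained one and 8 uncalled ones moved by more than 1 SE; no called value changed sign. The cause was not tested for any of them. The 10 of 20 member calls for PE averaged over genotypes stayed at 10 under each of these settings except a fit on only the groups compared (8) and 1 leading probe set per gene, which tests 8 member probe sets and called 4.

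Counts over all probe sets moved more. For SRFHKO against control at day 8 the 46 calls became 26 with quantile normalization, 93 with no pseudocount, 12 with a pseudocount of 16, 19 with no filter, 7 with 1 leading probe set per gene and 2 on only the groups compared. At day 25 without PE the 590 became 60 with brightness as a covariate, 295 with 1 leading probe set per gene and 93 on only the groups compared. At day 25 with PE the 251 became 74 with brightness and 130 on only the groups compared. For PE in control hearts the 7 became 4 with quantile normalization or 1 leading probe set per gene and 14 on only the groups compared; in SRFHKO hearts the 50 became 20 on only the groups compared. PE averaged over genotypes gave 149, and 227 with a filter at the 60th percentile. The 1 call for the interaction of PE and genotype became 0 with quantile normalization, no pseudocount or no filter, 3 at the 60th percentile or with 1 leading probe set per gene, and 4 with brightness. The 11 for the interaction of day and genotype became 6 with no filter, 3 with brightness, 0 with 1 leading probe set per gene and 2 on only the groups compared.

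Replicate numbers did not pair the hearts: over 14 same-number pairs the correlation of deviations ran from -0.0450 to 0.0740, none above 0.1. With the replicate block the counts were 6 at day 8, 291 and 647 at day 25 with and without PE, 38 and 7 for PE in SRFHKO and control hearts, 147 for PE averaged, and 0 and 5 for the interactions of PE and day; members that lost a call under it were Hsp90aa1 1426645_at (adjusted p = 0.0509 for deletion and 0.103 for PE in control hearts) and Hspb1 1425964_x_at (0.0832).

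Leaving out each heart gave 7 to 380 calls at day 8, the highest without control replicate 1, 92 to 749 at day 25 without PE, 48 to 303 with PE, 4 to 17 for PE in control hearts, and 2 to 116 for PE in SRFHKO hearts, the lowest without SRFHKO with PE replicate 2 and the highest without replicate 1. It gave 64 to 239 for PE averaged, 0 to 3 for the interaction of PE and 3 to 80 for that of day. Signal near the filter limit, as in 2 Hsp90aa1 probe sets, carries no order.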
